A study of Homo sapiens with 7 samples.

Results

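The 10 genes described here lie beside ABCG2, the gene of a drug efflux transporter, on the long arm of chromosome 4 (4q22), and were picked by name: PKD2, PPM1K, SPP1 and IBSP from inside a run of neighboring genes that was raised in the early stage lines, and HSD17B11, NUDT9, HERC6, HERC5, PIGY and HERC3 from outside it. All 10 had a row among the 25702 gene IDs of the count table, matched by the deposited symbol or the NCBI gene ID, and ABCG2 itself is left out of the 10. The run was found from the counts of the early stage lines against the control lines, so the values of that comparison are given as a description and no test of it is given for these genes.

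For each of 7 lines of K562, 1 RNA library was sequenced. The parent is a widely used cell line of leukemic cells driven by BCR::ABL1, the fusion kinase of chronic myeloid leukemia. The controls were the drug naive line and a line kept in DMSO, the solvent of the drug. The 5 dasatinib resistant (DasR) lines had been kept in stepwise higher doses of the kinase inhibitor dasatinib, with 10, 15 and 25 nM as early stage and 50 and 200 nM as late stage intermediates, a grouping that the study took from the clustering of these libraries. The lines are stages of 1 dose escalation rather than separate selections. The libraries held 21007761 (drug naive) and 24037893 (DMSO) counts, 27808639, 27844799 and 20059656 counts for the early stage doses in rising order, and 20827519 and 21588772 counts for the late stage doses. Levels are given as CPM, the counts of a gene relative to the total of its library. Lines of a group differ in dose, so every SD is a spread between lines and includes dose.

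PKD2 encodes polycystin-2, a cation channel of the primary cilium and the endoplasmic reticulum whose loss causes polycystic kidney disease. PPM1K is a phosphatase of the mitochondrial matrix that activates the branched-chain ketoacid dehydrogenase and so promotes the breakdown of leucine, isoleucine and valine. SPP1 (osteopontin) and IBSP (bone sialoprotein) are secreted, integrin-binding phosphoproteins of mineralized tissue that stand in a cluster with DSPP, DMP1 and MEPE, of the same family. HERC3, HERC5 and HERC6 belong to a family of ubiquitin ligases, and HERC5, induced by interferon, attaches the ubiquitin-like protein ISG15 to its substrates. NUDT9 hydrolyses ADP-ribose, HSD17B11 is a short-chain dehydrogenase of lipid droplets, and PIGY is a subunit of the enzyme that starts the synthesis of GPI anchors. Apart from the bone proteins and the HERC family, the 10 genes are grouped by position and not by role.

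On hg19 the members span 1372 kb in the order HSD17B11, NUDT9, IBSP, SPP1, PKD2, PPM1K, HERC6, HERC5, PIGY and HERC3. PKD2 (chr4:88928787-88998929, forward strand) ends 12.4 kb from the end of ABCG2, which is read in the opposite direction. PPM1K (chr4:89178772-89205921, reverse strand) lies 26.0 kb beyond the start of ABCG2 and is read in the same direction. SPP1 (chr4:88896819-88904684) and IBSP (chr4:88720706-88733587) are on the forward strand, 24.1 kb apart from PKD2 in the case of SPP1. The next members outward are NUDT9 (chr4:88343725-88380607, forward) on one side and HERC6 (chr4:89299891-89364249, forward), 94.0 kb past PPM1K, on the other. The library kit was directional, but the strand setting used in counting is not given in the sources used here, so it is not known whether reads of an antisense transcript were kept out of a gene's count. This bears on SPP1 and PPM1K, which each have 1 annotated gene with an exon on the opposite strand, and on neither PKD2 nor IBSP.

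The start regions of the 4 genes inside the run are shown because all 4 genes had their highest counts in the early stage lines, while the sequences differ in CpG content and motifs. Each is 300 bases of RefSeq sequence, from 250 before to 50 after the annotated start, placed on GRCh37 (hg19) by an exact match and written in the direction of the gene. Capitals mark every match, on either strand, to any of 9 short motifs. These were the GC box GGGCGG, the TATA box motif TATAAA, the CCAAT box, the E-box CACGTG, the spaced palindrome TTCNNNGAA, and the GATA motifs AGATAA, also with a leading T as TGATAA, and ending in G as AGATAG or, with both changes, as TGATAG.
PKD2, chr4:88928537-88928836, forward: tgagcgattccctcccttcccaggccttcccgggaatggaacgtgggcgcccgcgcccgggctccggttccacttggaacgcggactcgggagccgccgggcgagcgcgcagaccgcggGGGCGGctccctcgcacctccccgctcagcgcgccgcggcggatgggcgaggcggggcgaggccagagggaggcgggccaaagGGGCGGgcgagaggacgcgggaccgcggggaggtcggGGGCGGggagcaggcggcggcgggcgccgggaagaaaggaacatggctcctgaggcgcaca
PPM1K, chr4:89205664-89205963, reverse: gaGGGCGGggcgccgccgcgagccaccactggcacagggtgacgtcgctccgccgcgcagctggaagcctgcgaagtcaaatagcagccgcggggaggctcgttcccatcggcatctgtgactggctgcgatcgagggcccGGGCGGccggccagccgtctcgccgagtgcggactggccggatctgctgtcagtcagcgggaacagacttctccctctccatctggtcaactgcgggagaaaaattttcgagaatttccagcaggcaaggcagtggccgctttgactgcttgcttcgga
SPP1, chr4:88896616-88896915, forward: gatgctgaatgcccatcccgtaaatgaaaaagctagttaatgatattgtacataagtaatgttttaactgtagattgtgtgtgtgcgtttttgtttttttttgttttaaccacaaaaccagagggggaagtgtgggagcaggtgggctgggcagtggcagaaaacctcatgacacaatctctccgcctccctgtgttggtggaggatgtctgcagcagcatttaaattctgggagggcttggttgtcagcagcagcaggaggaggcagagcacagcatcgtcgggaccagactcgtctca
IBSP, chr4:88720456-88720755, forward: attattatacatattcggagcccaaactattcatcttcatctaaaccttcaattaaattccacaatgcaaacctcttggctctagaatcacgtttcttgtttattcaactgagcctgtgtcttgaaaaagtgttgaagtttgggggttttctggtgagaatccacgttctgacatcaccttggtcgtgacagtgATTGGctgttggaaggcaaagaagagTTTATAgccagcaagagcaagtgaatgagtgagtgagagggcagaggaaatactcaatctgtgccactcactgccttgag
The PKD2 window holds 44 CpG dinucleotides and the PPM1K window 30, against a median of 14 over 35116 RefSeq start windows of the same length. The SPP1 and IBSP windows hold 6 and 4. GGGCGG, found in 45.0% of all windows, matched 3 times in PKD2 and 2 times in PPM1K. IBSP had 1 match to TATAAA (11.5% of windows) and 1 to CCAAT (34.6%), both on the reverse strand, and SPP1 had none to any of the 9. No GATA motif, CACGTG or TTCNNNGAA was matched in the 4 windows, which says only that these letters are not there.

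PKD2 was at 6.24 CPM in the drug naive line and 4.04 CPM in the DMSO line. The early stage lines, in rising dose, had 336, 1491 and 1717 CPM, and the late stage lines 147 and 12.9 CPM. All 5 DasR lines thus lay above both controls, and the 15 and 25 nM lines stood highest. Early stage lines averaged 1181 ± 741 CPM (SD, n = 3) and controls 5.14 ± 1.56 CPM (SD, n = 2), a ratio of 230. PKD2 ranked 6 and PPM1K 12 by this ratio among the genes with at least 10 CPM in 2 libraries, of which 0.124% had a ratio over 100. Such a level is an average over the cells of a line, and fewer expressing cells cannot be told apart from less RNA per cell.

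PPM1K was the most abundant of the 10 genes in early stage cells. Its level was 25.9 and 24.4 CPM in the drug naive and DMSO lines, 776, 3694 and 3684 CPM at 10, 15 and 25 nM, and 251 and 32.3 CPM at 50 and 200 nM. The order of the lines was that of PKD2, except that 15 and 25 nM were level with each other. Per kb of the gene length in the deposited tables, the early stage mean was 730 CPM per kb for PPM1K and 234 for PKD2, and the control mean 6.75 and 1.02.

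SPP1 had no counts in either control. It had 89, 499 and 289 counts at 10, 15 and 25 nM, which are 3.20, 17.9 and 14.4 CPM, then 28 counts at 50 nM and 1 count at 200 nM. Taking 3 counts in the shallower control library (0.143 CPM) as the limit that 0 counts allow, SPP1 was at least 22.4-fold, 125-fold and 101-fold higher in the 3 early stage lines in rising dose, and at least 9.41-fold higher at 50 nM. At 200 nM it was under that limit. Even at its highest, SPP1 was far below PKD2 and PPM1K, with an early stage mean of 7.29 CPM per kb.

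IBSP did not follow the same profile. It had 11 and 7 counts in the drug naive and DMSO lines, 28, 172 and 285 counts in the early stage lines in rising dose, and 33 and 7 counts in the late stage lines. In CPM this was 0.524 and 0.291 in the controls, 1.01, 6.18 and 14.2 in the early stage lines, and 1.58 and 0.324 in the late stage lines. Its 25 nM line stood alone at the top, its 50 nM line was above its 10 nM line, and its 200 nM line lay between the controls.

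**Figure D1:**
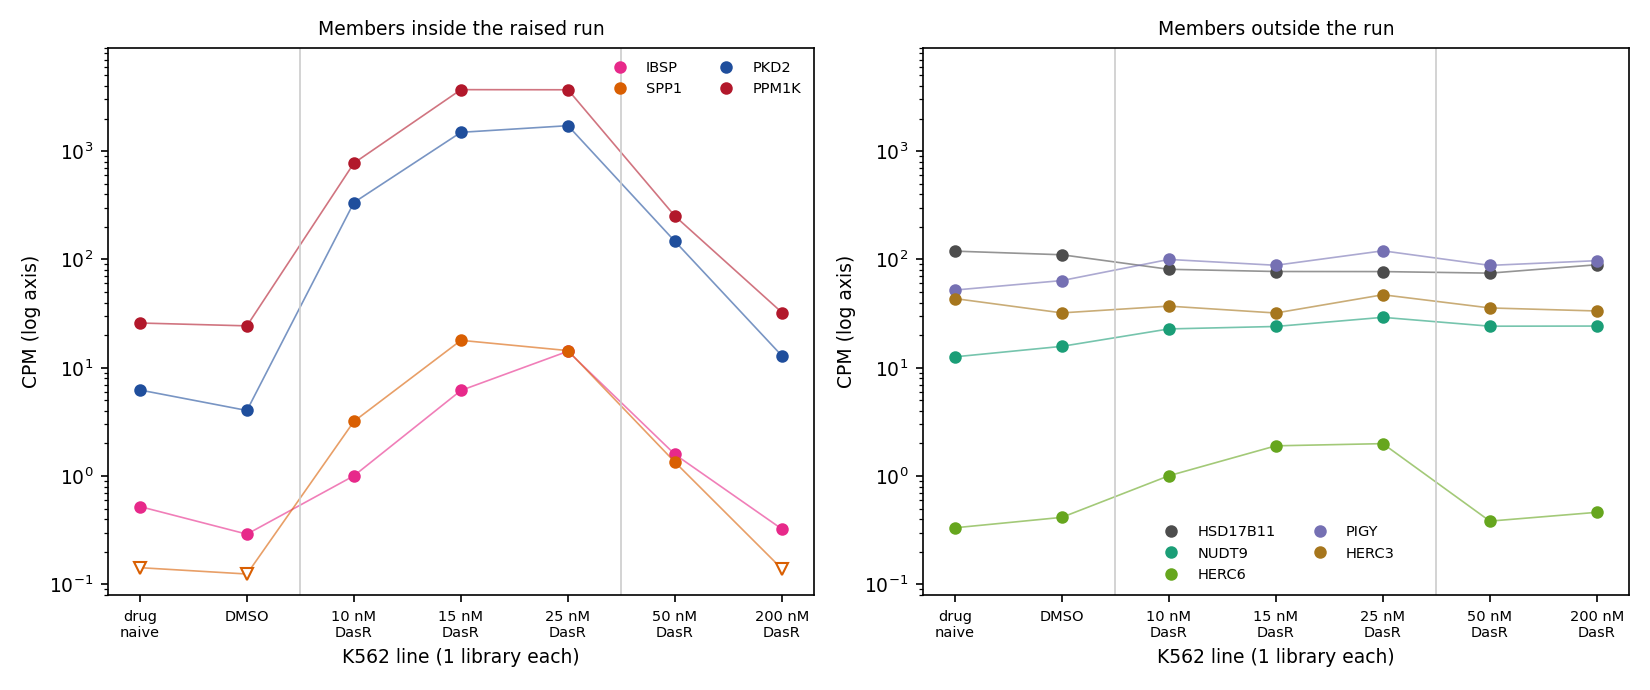
CPM (log axis) of the members in the 7 K562 lines, 1 library each, with the 4 members inside the raised run on the left and 5 of the 6 outside it on the right; grey lines divide control, early stage and late stage lines, and open triangles mark 3 counts or fewer, drawn at the level of 3 counts. PKD2 and PPM1K peak at 15 and 25 nM and come down at 50 and 200 nM, while HSD17B11, NUDT9, PIGY and HERC3 stay within a narrow band; HERC5 had no more than 1 count in any line and is not drawn.

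PKD2, PPM1K and SPP1 kept similar proportions to each other over the lines from 10 to 50 nM, and IBSP did not. To compare genes of such unequal abundance, the excess of each line over the control mean was expressed as a percentage of the excess in the 15 nM line. In the 10 nM line this was 22.2% for PKD2, 20.5% for PPM1K, 17.9% for SPP1 and 10.4% for IBSP. At 25 nM it was 115% for PKD2, 99.7% for PPM1K, 80.4% for SPP1 and 239% for IBSP. At 50 nM it was 9.53% for PKD2, 6.16% for PPM1K, 7.50% for SPP1 and 20.4% for IBSP. IBSP lay outside the range of PKD2, PPM1K and SPP1 in each of these lines. At 200 nM the excess was at most 0.521% in any of the 4, the value of PKD2. Counts of PKD2 per count of SPP1 lay between 83.2 and 119 in the 4 lines where SPP1 had over 3 counts, while counts of PKD2 per count of IBSP ran from 333 at 10 nM to 92.6 at 50 nM.

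**Figure D2:**
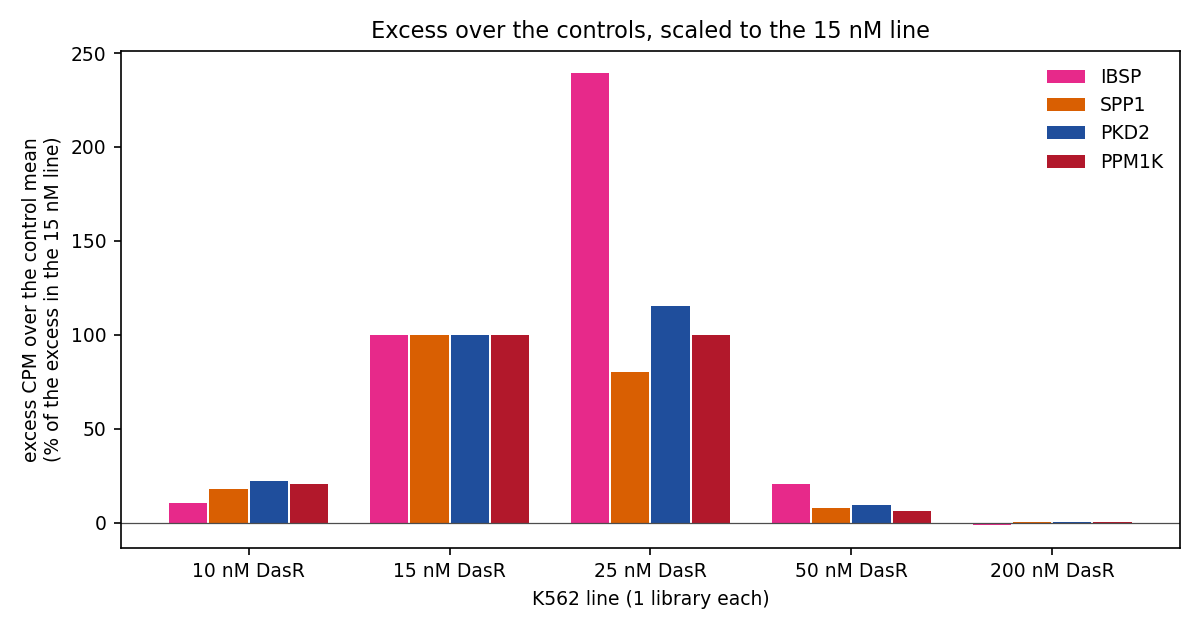
Excess of CPM over the control mean in each DasR line, as a percentage of the excess in the 15 nM line, for the 4 members inside the run (1 library per line; 15 nM is 100% by construction). The bars of SPP1, PKD2 and PPM1K lie at 17.9% to 22.2% at 10 nM, 80.4% to 115% at 25 nM and 6.16% to 9.53% at 50 nM, and IBSP differs most at 25 nM.

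The other 4 genes of the run, which are not among the 10, were measured beside them. DSPP, DMP1 and MEPE, of the same family as SPP1 and IBSP, had 26, 12 and 27 counts at 10 nM, 110, 79 and 85 at 15 nM, 116, 55 and 79 at 25 nM, and 12, 6 and 4 at 50 nM, and none had over 4 counts in any control line. ABCG2 was at 3.57 and 0.582 CPM in the controls, then 512, 3122 and 3089 CPM in the early stage lines, and 199 and 2.41 CPM at 50 and 200 nM. Its share of the 15 nM excess at 50 nM, 6.32%, was close to those of MEPE, at 6.29%, and PPM1K. The run was found from the early stage lines against the controls, so a change of ratio at its edges is built in. The early stage mean was 37.4 times the control mean for DSPP, the outermost gene inside the run on one side. It was 2.07 times for its neighbor SPARCL1 outside. In the drug naive and DMSO lines DSPP had 4 and 0 counts, and SPARCL1 11 and 28. Further inside the run, IBSP had a ratio of 17.5. On the other side the ratio was 108 for PPM1K inside and 4.36 for HERC6 outside.

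HERC6, although outside the run, also had higher counts in the early stage lines. It had 7 and 10 counts in the drug naive and DMSO lines, 28, 53 and 40 at 10, 15 and 25 nM, and 8 and 10 at 50 and 200 nM. The 3 early stage lines lay above both controls. In CPM the 50 nM line lay between the controls, at 0.384, and the 200 nM line just above both, at 0.463 against 0.333 and 0.416. HERC5, 14.02 kb further on, had 1 count in the DMSO line, 1 at 10 nM and none elsewhere, so nothing can be said of it at this depth.

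NUDT9 and PIGY were higher in all 5 DasR lines than in either control, by less than 2-fold on average. NUDT9 had control levels of 12.6 and 15.8 CPM, then 22.8, 24.1 and 29.2 CPM in the early stage lines and 24.2 and 24.3 CPM in the late stage lines. PIGY was at 52.2 and 63.8 CPM in the controls, then 100.04, 88.3 and 120 CPM in the early stage lines, and 88.2 and 97.5 CPM in the late stage lines. Neither gene came down at 50 and 200 nM as the run did. PIGY shares its annotated span (chr4:89442149-89444927) with PYURF, which has no row in the count table, so the PIGY counts may hold reads of both. HSD17B11 went the other way, at 119 and 110 CPM in both controls, and between 74.8 and 89.4 CPM in the 5 DasR lines. HERC3 overlapped between groups, at 43.6 and 32.1 CPM in the controls, then 37.1, 32.0 and 47.2 CPM in the early stage lines and 35.7 and 33.4 CPM in the late stage lines.

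Counted over all 10 members, 7 had every early stage line above both controls and 1, HSD17B11, had every one below. Of the 10452 genes that reached 10 CPM in 2 or more libraries, 35.9% had their early stage lines above both controls and 34% below, and since the members were chosen on this comparison nothing is read from their count. Both late stage lines were above both controls in 5 members and below in 1, where the background was 34.3% and 33.4%. All 5 DasR lines were above both controls in 5 members and below in 1, against 25.1% and 23.7% of the genes tested. In both cases SPP1 is among the 5 on 1 count at 200 nM against 0 in the controls. The limit of 10 CPM behind the background was not applied to the members in these counts. Changes in the early stage lines were common in general: 18% of all genes tested passed an FDR of 0.005 and 46.5% one of 0.05 by edgeR. The order of CPM seen in PKD2, with 200 nM lowest of the DasR lines, then 50 nM, then 10 nM and the 15 and 25 nM lines highest, was found in 3 of the 4 members inside the run, in all 4 of its other genes and in none of the 6 members outside it. This order held for 9.85% of the genes tested, a set that DSPP, DMP1 and MEPE did not reach. At 200 nM DSPP and DMP1 had 1 count each and MEPE had 0. The order has the early stage lines highest, and the run was found from those lines, so nothing is read from these counts of genes.

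**Figure D3:**
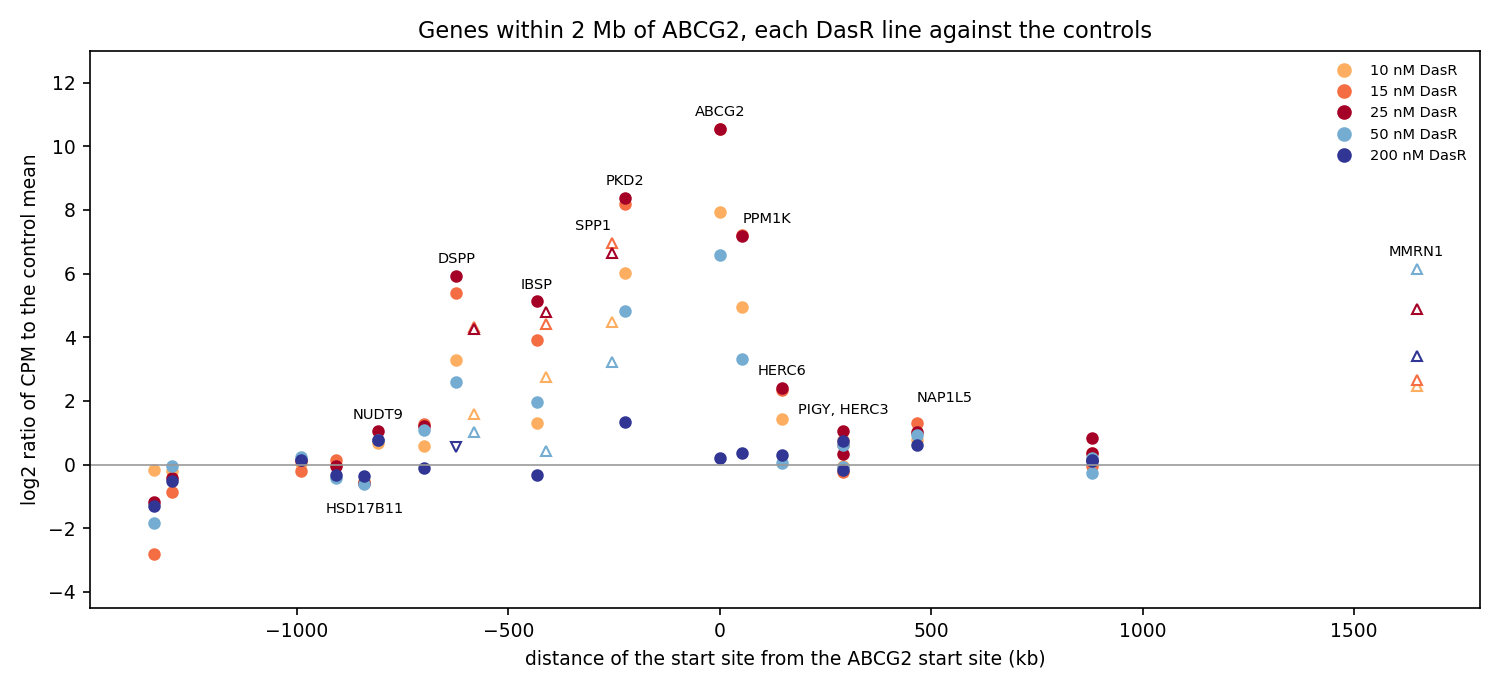
Log2 ratio of CPM to the control mean for 22 protein-coding genes with at least 50 counts in all, plotted by the distance of their start site from that of ABCG2 (kb), with 1 point per DasR line except where both that line and the controls had 3 counts or fewer (DMP1, MEPE and SPP1 at 200 nM). Open triangles pointing up are lower bounds, where both controls had 3 counts or fewer, and pointing down mark a line at 3 counts or fewer. The early stage points are mostly high from DSPP to PPM1K, lower at HERC6 and close to 0 at HERC3. An exception is IBSP at 10 nM, where its point, at 1.31, is below that of HERC6, at 1.43. MMRN1, outside the run, has early stage lower bounds of 2.47 to 4.87. At 200 nM the points of ABCG2, PPM1K and IBSP are near 0 while PKD2 is at 1.33.

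In the same window, the listed neighbors that are not part of the run gave values of other kinds. AFF1, a subunit of a transcription elongation complex, was at 191 and 190 CPM in both controls, and between 105 and 183 CPM in the DasR lines. KLHL8, an adaptor of a ubiquitin ligase, was between 48.7 and 66.2 CPM in all lines. MMRN1, a platelet and endothelial protein, was highest at 50 nM with 212 counts. It did not show the order of the run. Of the 19 listed neighbors, 18 had a row of counts and 11 of these did not reach 10 CPM in 2 libraries.

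The late stage lines were not used to choose the genes, although the control lines were, and the late stage lines against the controls were compared over all 10452 genes with the quasi-likelihood F-test of edgeR and FDR adjustment after Benjamini and Hochberg. Of these genes 7.98% passed an FDR of 0.005, 3.42% higher and 4.56% lower. Of the 10 members 7 reached the limit on CPM, and none of the 7 passed. At an unadjusted p under 0.05 there were 5, as for 45.9% of all genes, and 4 had an FDR under 0.05, as did 33.9% of all genes. Those 4 became 0 without the drug naive line and 2 without the 50 nM line. With DESeq2 on the same genes 3 of the 7 passed 0.005, namely HSD17B11, NUDT9 and PIGY, and 23.9% of all genes did. SPP1 reached the limit on CPM through the early stage lines alone, so the count of 7 is no fair sample of the members. The median log2 fold change of the 7 was 0.75, against 0.00 over all genes tested.

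In the late stage lines PKD2 was higher than the controls by 3.95 on the log2 scale, with a standard error of 1.23 (edgeR, Benjamini-Hochberg FDR 0.0435), and in 2 of 2 lines. PPM1K had 2.48 (standard error 1.01, FDR 0.0957 from the same edgeR test), also higher in 2 of 2. Both values rest mainly on the 50 nM line. Without it the log2 fold changes were 1.30 for PKD2 and 0.33 for PPM1K, and without the 200 nM line 4.83 and 3.31. SPP1, with 28 and 1 counts against 0 in both controls, had an FDR of 0.137 by the same edgeR test. Nothing is read from this value, since SPP1 reached the limit on CPM through the early stage lines alone.

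For the members outside the run the late stage values were smaller and more even between lines. NUDT9 stood at 0.75 on the log2 scale (standard error 0.16, edgeR FDR 0.0129) and PIGY at 0.66 (standard error 0.16, edgeR FDR 0.0191), each higher in 2 of 2 lines. HSD17B11 was at -0.51 (standard error 0.11, FDR 0.0137 by the edgeR test). HERC3 was at -0.16 with a standard error of 0.22 and an FDR of 0.615 by the edgeR test. IBSP and HERC6 did not reach 10 CPM in 2 libraries. At a limit of 1 CPM in 2 libraries they had log2 fold changes of 1.24 and 0.18. HERC6 reached 1 CPM in the early stage lines alone, and IBSP there and at 50 nM. Both passed this limit only with the lines they were chosen on, so no test is given for them.

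Between single lines there is no replicate, and ratios are given with exact (Clopper-Pearson) 95% intervals that cover counting error only, after scaling by TMM. At 200 nM PKD2 was 11.6-fold lower than at 50 nM (interval 10.2 to 13.1) and PPM1K 7.87-fold lower (7.27 to 8.53). IBSP was 4.95-fold lower (2.15 to 13.3) on 7 against 33 counts. SPP1 had a ratio of 200 nM to 50 nM of 0.0340 (0.000831 to 0.206) on 1 against 28 counts. The members outside the run differed little in this step: the ratio of 200 nM to 50 nM was 0.989 for NUDT9 (0.874 to 1.12), 1.09 for PIGY (1.02 to 1.16), 0.925 for HERC3 (0.834 to 1.03) and 1.18 for HSD17B11 (1.10 to 1.26). Of the genes tested 2.54% were over 2-fold lower and 1.06% over 2-fold higher in this step.

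Within the early stage lines, the mean of 15 and 25 nM was 4.74 times the 10 nM level for PKD2, 4.72 times for PPM1K, 5.01 times for SPP1 and 10.1 times for IBSP. It was 1.92 times for HERC6 on 28 counts at 10 nM, and between 0.946 and 1.16 for HSD17B11, NUDT9, PIGY and HERC3. Of the genes tested 0.708% were over 2-fold higher and 1.16% over 2-fold lower in this step. Both steps together, over 2-fold up from 10 nM to 15 and 25 nM and over 2-fold down from 50 to 200 nM, were found in 19 genes. At a limit of 4-fold in each step, chosen after these values were seen, there were 6 genes: ABCG2, PKD2, PPM1K, SPP1, NFASC and SPRR2D, the last with no counts on the lower side of either step. Here 3 of the 6 are members, and ABCG2 lies between them. These steps are within the group the members were chosen on or beside it, so the count is a description.

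**Figure D4:**
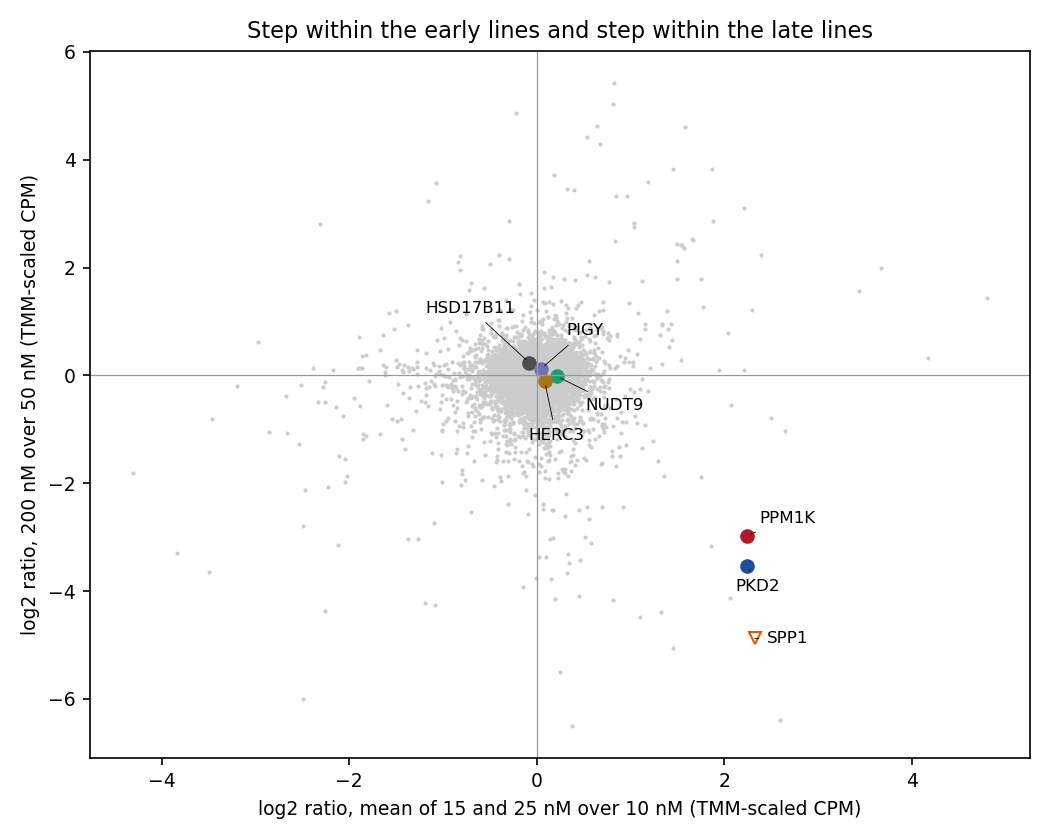
Log2 ratio of the mean of 15 and 25 nM over 10 nM (horizontal) and of 200 nM over 50 nM (vertical), from TMM-scaled CPM, for 10447 of the 10452 genes with both ratios finite (grey) and for 7 members (colored; the open triangle rests on 1 count). PKD2, PPM1K and SPP1 sit apart in the lower right, and HSD17B11, NUDT9, PIGY and HERC3 sit at the center.

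Between the 2 control lines PKD2, PPM1K and IBSP differed less than in the steps above, which did not hold for HERC3, NUDT9 and PIGY. DMSO over drug naive was 0.622 for PKD2 (0.473 to 0.814), 0.904 for PPM1K (0.803 to 1.02) and 0.534 for IBSP (0.176 to 1.51), with the same kind of interval. It was 0.708 for HERC3 (0.643 to 0.780), 1.20 for NUDT9 (1.02 to 1.41) and 1.17 for PIGY (1.09 to 1.27). Of all genes tested 0.153% were over 2-fold higher and 0.938% over 2-fold lower in the DMSO line, and no member with counts in both control lines was among them. ABCG2 itself was 6.38-fold lower in the DMSO line (3.58 to 12.2) on 14 against 75 counts, a difference that PKD2 showed only in part and PPM1K did not show beyond counting error.

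The genes with the most similar profile over the 7 lines were ranked by the root mean square difference of log2 CPM (prior count 2) after each gene's mean was subtracted, among 16411 other genes with at least 50 counts in all. The nearest to PKD2 were SPP1 at 0.40, PPM1K at 0.57, VCAN at 0.64, CALD1 at 0.85 and ANO1 at 0.86. The nearest to PPM1K were SPP1 at 0.26, KIF26A at 0.49, PKD2 at 0.57, VCAN at 0.65 and NFASC at 0.67. For SPP1 they were PPM1K, PKD2, VCAN, KIF26A and CALD1. At this prior count the other 2 were among the 5 nearest for each of these 3 members. VCAN, on chromosome 5, was farther than both in each case, and KIF26A, on chromosome 14, was nearer to PPM1K than PKD2 was. IBSP was nearest to TLR4 at 0.41, DMP1 at 0.48, DSPP at 0.61, B4GALNT3 at 0.68 and EYA2 at 0.71. With 1 library per line and controls near 0 counts, these ranks are a description and depend on the prior count. At a prior count of 0.5, 3 of the 5 genes nearest to PKD2 and 1 of the 5 nearest to PPM1K stayed the same. SPP1 was then no longer among the 5 nearest to PPM1K, nor PPM1K among the 5 nearest to SPP1.

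Genes that work with the members, or are related to them, were followed in 7 lists, drawn up with earlier results of these data known. Of the 63 listed partners 41 were tested. For the late stage lines the edgeR test passed none of them at 0.005, while 19 had an unadjusted p under 0.05 and DESeq2 called 10, against 45.9% and 23.9% of all genes. In the early stage lines 7 of the 41 passed as lower and none as higher, where 10.1% of all genes passed as lower and 7.92% as higher. The partners named are among the most abundant of each list, except BCKDHA, BCKDK, SEC63, CD44 and HSD17B8, which were chosen after their values were seen.

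The branched-chain amino acid list, which goes with PPM1K, had all 10 genes tested, 2 lower and none higher in the early stage lines, with a median log2 fold change of -0.34. BCKDHA, a subunit of the dehydrogenase that PPM1K activates, was at 61.2 and 51.7 CPM in the controls, against 24.9, 26.9 and 19.4 CPM in the early stage lines (log2 fold change -1.27, standard error 0.18, FDR 0.00184 by edgeR). BCAT1, the cytosolic transaminase that starts the pathway, was at 977 and 828 CPM in the controls, against 457, 419 and 455 CPM in the early stage lines (log2 fold change -1.04, standard error 0.11, FDR 0.000612 by edgeR). Both were lower in 3 of 3 early stage lines while PPM1K was higher. Both also lay below the controls at 50 and 200 nM, with BCKDHA at 27.1 and 35.2 CPM and BCAT1 at 540 and 577 CPM. Their late stage log2 fold changes were -0.88 (FDR 0.0149 by edgeR) and -0.72 (FDR 0.00533 by edgeR). PPM1K was at 251 and 32.3 CPM in those lines. The 2 genes were nearer to the controls there than in the early stage lines, but still below them. A link between them and PPM1K was not tested. BCKDK, the kinase that opposes PPM1K, did not pass in either stage.

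In the polycystin list 6 of 10 genes were tested, and GANAB, a glucosidase subunit of the endoplasmic reticulum, was the most abundant at 607 to 824 CPM over the 7 lines. PKD1, the partner of polycystin-2 in the ciliary complex, was at 453 and 542 CPM in the controls, against 338, 360 and 369 CPM in the early stage lines. The list had 2 genes lower in the early stage lines, SEC63 of the endoplasmic reticulum translocon at a log2 fold change of -0.74 (FDR 0.00145 by edgeR) and the mechanosensitive channel PIEZO1 at -0.58 (FDR 0.00325 by edgeR). Of 11 osteopontin receptors and enzymes 5 were tested, and the integrin subunits ITGB1 (-0.62, FDR 0.00294 by edgeR) and ITGA5 (-1.50, FDR 0.00287 by edgeR) were lower in the early stage lines. CD44, another receptor of osteopontin, varied widely within groups, at 27.0 and 7.86 CPM in the controls, then 13.8, 1.62 and 31.9 CPM in the early stage lines and 97.4 and 29.6 CPM in the late stage lines.

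The remaining lists had few calls. Of 10 genes of ISG15 conjugation and the interferon response 3 were tested and none passed. ISG15 itself was between 5.11 and 10.1 CPM in all lines. The 6 partners of PIGY were tested and none passed, with DPM2 the most abundant at 36.1 to 70.1 CPM, and with PIGA, the catalytic subunit, at 37.5 CPM in each control, and between 26.3 and 32.1 CPM in the early stage lines. None of 6 tested genes on the Nudix list passed, and NUDT3, the most abundant, was at 79.1 to 119 CPM over the 7 lines. Of 5 tested dehydrogenases related to HSD17B11, HSD17B4 was the most abundant at 82.3 to 121 CPM over the 7 lines. HSD17B8 alone passed and was lower in the early stage lines, at a log2 fold change of -1.69 (FDR 0.00303 by edgeR).

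The label of the lines, erythroblast, was checked against 14 erythroid markers, all of which had counts, with HBG2 the most abundant at 915 to 3038 CPM. Their summed level was 4233 and 3842 CPM in the drug naive and DMSO lines, 12579, 14172 and 11009 CPM at 10, 15 and 25 nM, and 7069 and 4975 CPM at 50 and 200 nM. This sum moved in the same direction as the run, and 12 of the 14 markers had every early stage line above both controls. Its part in the values of the run was not tested. The 7 megakaryocytic markers summed to 81.8 and 68.1 CPM in the controls, then 48.5, 31.0 and 34.6 CPM in the early stage lines, and 80.5 and 128 CPM at 50 and 200 nM, with GP9 and PF4 at 3 counts or fewer throughout. The lower early stage sum came from ITGA2B, the most abundant of them. The other markers summed to 17.9 and 15.7 CPM in the controls, then 35.2, 25.1 and 21.4 CPM in the early stage lines, and 23.8 and 28.5 CPM at 50 and 200 nM, higher in every DasR line than in either control. The single markers went both ways. Of the 7, only 1 had every early stage line above both controls and 3 had every one below, against 35.9% and 34% of the genes tested.

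Because SPP1 and IBSP are proteins of bone, 14 markers of bone-forming cells were summed as well. Their level was 33.1 and 45.9 CPM in the drug naive and DMSO lines, 13.2, 19.9 and 18.9 CPM in the early stage lines in rising dose, and 17.6 and 18.3 CPM at 50 and 200 nM, so it was lower in all 5 DasR lines than in either control. RUNX2, the transcription factor that starts the osteoblast program, was at 1.54 to 20.9 CPM over the 7 lines. DLX5 had no counts in any line, and POSTN and SOST had 3 or fewer in every line. The list includes DMP1, which is a gene of the run.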

How the data were processed

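Libraries of 7 K562 lines, depleted of ribosomal RNA, were sequenced in paired ends. Raw gene-level counts were deposited. The authors used STAR and hg19 for alignment, and the submitters' processing notes name featureCounts. The deposited comparison tables also hold fold changes, p-values and FDR values, which were not used. Only symbols and gene lengths were taken from those tables. The members and lists were chosen with earlier results of these data known.

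A gene was kept if 2 libraries reached 10 CPM. TMM factors were used, and glmQLFit and glmQLFTest of edgeR 4.0.16 (R 4.3.3) were run on all 7 libraries, with 1 coefficient per group (control, early stage, late stage). The biological coefficient of variation was 0.161. P-values measure the spread between lines, since no line was sequenced more than once, and counts of lines in a group differed by more than sampling noise (chi-square per degree of freedom 14.5 to 45.0). DESeq2 1.42.0 was an alternative. On simulated counts for the late stage comparison over 10452 genes, 200 of 200 genes changed by 2 on the log2 scale were called, with 2 unchanged genes. Every gene was simulated with the common dispersion (0.026) and without an effect of dose inside a group. PKD2 and PPM1K differed far more between lines, so the simulation does not show that such a change would be called in genes like these. Total counts ran from 20059656 to 27844799, so 3 counts are 0.108 to 0.150 CPM. Positions came from GENCODE 44 mapped to GRCh37, the build of hg19, and start regions from RefSeq, which gave 8 of the 10 members. Genes named are the members, the listed neighbors, 1 to 4 partners a list (those past the FDR in late stage lines, otherwise the most abundant), and the 5 most similar profiles. Partners outside this rule were chosen after their values were seen. Other settings tried were DESeq2, another scaling, other filters, fewer groups, an FDR of 0.05, a smaller prior count and each library left out. Protein sequences were not used here. Some listed genes are not reported here.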

Additional observations from a re-analysis of the deposited data

How the results depend on the processing

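In the late stage lines 834 genes passed an FDR of 0.005, and the count was 2503 with DESeq2, 1287 with no filter on low counts, 257 with the libraries of both groups alone, 3542 at an FDR of 0.05, and between 30 and 601 with 1 library left out, lowest without the drug naive line and 95 without the DMSO line. It was 276 without the 25 nM line, 301 without the 50 nM line and 292 without the 200 nM line. In the early stage lines 1881 genes passed, 3548 with DESeq2, 4865 at an FDR of 0.05, and between 187 and 2074 with 1 library left out. The fewer samples left are part of the lower counts, and the cause of the others was not tested. Among the members tested in the late stage lines, DESeq2 moved HSD17B11 (log2 fold change -0.51), NUDT9 (0.76) and PIGY (0.66) past 0.005, and HERC3 ran from -0.40 to 0.10 with 1 library left out, turning direction to 0.10 without the drug naive line. At 0.005 the other directions and calls of the members held in the settings run, which give no value for SPP1 without the 15 nM or the 25 nM line. At 0.05 the 4 members became 0 without the drug naive line and 2 without the 50 nM line. None of the genes nearest to IBSP lay within 2 Mb of ABCG2 at a prior count of 0.5, against 2 otherwise. No paired analysis was possible because the labels give no replicate numbers. Depth limits IBSP, HERC6, HERC5, DSPP, DMP1 and MEPE, which had few counts, and SPP1 outside the early stage lines.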
